A study of Mus musculus with 6 samples.

Results

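The 77 genes described here encode proteins of the mitochondrial ribosome in mouse, read out in 6 bulk RNA-seq libraries labelled as sorted CD8+ regulatory-like T cells (TRLs), a label that the markers of the 2 brain libraries went against. They were chosen by symbol, as the genes named Mrpl or Mrps followed by a digit with 10 or more counts in at least 2 libraries. All 77 symbols of that form in the count table met the count minimum, of 24394 gene symbols in all. The 48 Mrpl symbols stand for the large subunit and the 29 Mrps symbols for the small subunit. Mrps18a and Mrps30 keep their small subunit symbols, although their proteins sit in the large subunit of the mammalian particle. Subunit classes below follow the symbols. Classes by bacterial counterpart follow a grouping made by hand, with Mrpl47 among the genes without one, and other sources may place single genes differently.

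The mitochondrial ribosome makes the few proteins encoded by mitochondrial DNA, which are core subunits of the respiratory chain and of ATP synthase. All of its proteins are encoded in the nucleus, made in the cytosol and imported. Some descend from proteins of the bacterial ribosome and others were added in the mitochondrial lineage. T cells build up mitochondria and their translation when they are activated, and mitochondrial translation is needed for them to proliferate and to make effector molecules.

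The 6 libraries form 3 groups of 2. Sham blood came from sham-operated mice, and tMCAO blood and tMCAO brain from mice that had undergone transient middle cerebral artery occlusion (60 minutes, a model of ischemic stroke) 3 days earlier. All mice were wild type, male, 9 weeks old and of the C57BL/6NCrl background by the labels. Cells were sorted as CD8+CD122+CD49dlow into lysis buffer, 500 to 1000 cells per library, so each library reads a small and amplified amount of RNA. Neither the labels nor the methods state whether a library is 1 mouse or a pool, so p-values here reflect only how far libraries of a group lie apart.

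Counts on genes ran from 13793081 to 17149924 per library. The brain libraries went against their cell label. The 10 T cell markers in the table summed to 9815 to 15520 CPM (counts scaled to a common library size, here with the TMM method) in the blood libraries and to 105.9 and 91.2 CPM in the brain libraries. There Cd8a, the CD8 alpha chain used for the sort, was at 2.304 and 2.195 CPM, against 794.9 to 1286 CPM in blood. The 12 microglia markers summed to 26950 and 44210 CPM in brain and to 196.3 to 271.8 CPM in blood, and the 10 monocyte and macrophage markers to 26740 and 21730 CPM in brain and to 1194 to 3334 CPM in blood. Among these 10, Ly6c2 went the other way, at 84.31 and 51.95 CPM in brain and 927.0 to 1393 CPM in blood. None of these 3 lists had a marker at 0 in both brain libraries, while Sall1 and Csf1r were at 0 in both tMCAO blood libraries and Tmem119, Sall1, Siglech, Olfml3 and C1qc in both sham blood libraries. The 3 NK cell markers summed to at most 1.92 CPM in brain, the 8 neutrophil markers (7 in the table) to 288.3 and 281.7 CPM and the 6 dendritic cell markers to 152.9 and 466.0 CPM, of which Siglech, also in the microglia list, made up 126.1 and 442.8 CPM. Summed markers of astrocytes, neurons, oligodendrocytes and endothelium stayed at or under 66.9 CPM in every library. The 6 B cell markers in the table summed to 1014 and 588.8 CPM in sham blood and to at most 86.1 CPM elsewhere. In what follows, "brain" means the libraries labelled so, and a difference between brain and blood compares libraries of different cell content. In bulk libraries fewer cells of a type and less RNA per cell cannot be told apart.

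Every one of the 77 genes was expressed in every library, with 88 to 6607 counts. In sham blood they summed to 4930 and 4755 CPM. The sums in tMCAO blood were 4615 and 8896 CPM, and those in brain 4768 and 4467 CPM. Summed expression therefore lay within a narrow band in 5 libraries and was nearly doubled in the second tMCAO blood library. Both subunits shared this shape. For the 48 large subunit genes the sums were 3093 and 2975 CPM (sham blood), 2931 and 5515 CPM (tMCAO blood) and 3126 and 2869 CPM (brain). For the 29 small subunit genes they were 1837 and 1780, 1684 and 3381, and 1642 and 1598 CPM in the same order. As an unscaled share of the counts on genes, the 77 genes made up 0.571% and 0.555% (sham blood), 0.557% and 0.887% (tMCAO blood), and 0.375% and 0.348% (brain). On that scale the brain libraries lay below all blood libraries, which they did not on the TMM scale. With 2 libraries against 2, an exact permutation test of a single value cannot go below a two-sided p of 0.333, so none was run.

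**Figure D1:**
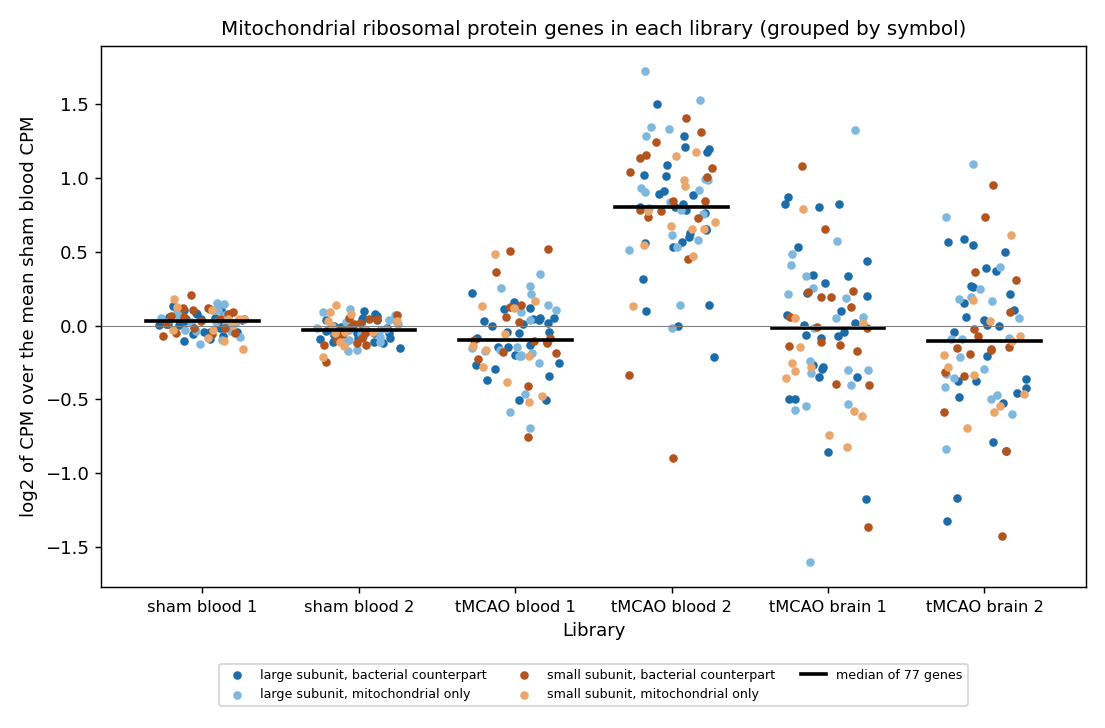
Each point is 1 of the 77 genes in 1 library, plotted as the log2 ratio of its TMM-normalized CPM to its mean in sham blood. Colors give the subunit symbol and whether the protein has a bacterial counterpart in the grouping made by hand. Black bars are medians over the 77 genes: 0.03 and -0.03 (sham blood), -0.10 and 0.80 (tMCAO blood), -0.02 and -0.11 (brain).

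Levels between genes were compared per transcript length, as FPKM, for the 71 genes with a value of their own in all 6 libraries. Mrpl33, a small protein of the large subunit with a bacterial counterpart, had the highest mean over the 6 libraries, 578.6 FPKM. It was followed by Mrps18c (488.1 FPKM), the mitochondrial form of bacterial S18, by Mrps21 (364.6 FPKM) of the small subunit, and by Mrpl42 (289.0 FPKM) and Mrpl18 (285.5 FPKM) of the large subunit. The lowest were Mrps5 (12.8 FPKM), Mrps31 (13.98 FPKM), Mrps2 (14.6 FPKM), Mrps27 (15.1 FPKM) and Mrpl47 (19.2 FPKM). Proteins of 1 particle thus came from messages whose FPKM values spread widely, and this order of means is not that of every library and is only as good as the FPKM estimates. Mrpl18 was above Mrpl33 in sham blood 2 (575.5 and 515.4 FPKM) but at 79.4 and 73.6 FPKM in brain, and Mrps18c was above Mrpl33 in brain 2 (350.3 and 264.3 FPKM). Mrpl18 had 306.5 and 575.5 FPKM in the sham blood libraries but 212.4 and 195.6 CPM, and Mrpl17 had 12.2 and 115.2 FPKM in the brain libraries but 114.3 and 92.7 CPM. The ratio of FPKM to CPM varied over 2-fold among the libraries for 14 of the 71 genes (19.7%), against 37.4% of 8650 genes with both values. Fold changes are therefore given from the counts.

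The 3 paralogs of bacterial S18 differed in level and in pattern. Mrps18a, whose protein is in the large subunit, was at 48.5 and 40.6 CPM (sham blood), 41.5 and 93.6 CPM (tMCAO blood) and 70.1 and 74.2 CPM (brain). Mrps18b was at 72.2 and 60.7, 56.7 and 119.2, and 77.9 and 85.7 CPM in the same order, and Mrps18c at 160.3 and 163.1, 149.1 and 277.0, and 123.2 and 144.2 CPM. Brain was above both sham libraries for Mrps18a and Mrps18b and below both for Mrps18c, and 0 of the 3 passed the test in any comparison. Mrps36, whose protein is now placed in the oxoglutarate dehydrogenase complex, was at 76.0 and 71.2 CPM (sham blood), 52.9 and 119.8 CPM (tMCAO blood) and 57.5 and 45.5 CPM (brain). Its tMCAO blood libraries lay on both sides of sham, as they did for 41 of the 77 genes.

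The comparison of tMCAO blood with sham blood sets libraries labelled as circulating TRLs after stroke against those without stroke. These groups also differed in cell type markers, whose part in the values below was not tested. In sham blood the B cell markers summed to 1014 and 588.8 CPM, against 30.8 and 86.1 CPM in tMCAO blood. Monocyte and macrophage markers summed to 2006 and 3334 CPM, against 1194 and 1573 CPM. T cell markers summed to 10210 and 9815 CPM, against 10890 and 15520 CPM. None of the 77 genes passed edgeR's quasi-likelihood test with the threshold set at a fold over 2 and an adjusted p (Benjamini-Hochberg) under 0.05, and 0 had an unadjusted p under 0.05. Among all 12424 genes tested 0.0% were called higher and 0.821% lower. DESeq2, limma-voom and limma on FPKM also called 0 of the 77, with at most 2 at an unadjusted p under 0.05 in DESeq2, 0 in limma-voom and 7 in limma on FPKM. The log2 fold change was above 0 for 74 of the 77 genes, with a median of 0.45 against 0.03 over all genes tested. The libraries did not overlap for 19 genes that were higher in tMCAO blood and for 0 that were lower, where the share over all genes was 17.0% higher and 18.6% lower.

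The 5 higher genes with the smallest p were Mrps26, Mrps9, Mrpl33, Mrpl48 and Mrpl41, and 3 genes had a negative estimate. Mrps26, a small subunit protein without a bacterial counterpart, was at 68.8 and 64.8 CPM in sham blood and 93.5 and 106.5 CPM in tMCAO blood. Mrps9, the counterpart of bacterial S9, was at 60.6 and 59.7 CPM in sham blood and 77.4 and 100.5 CPM in tMCAO blood. In both genes the 2 tMCAO libraries lay above the 2 sham libraries, by 0.58 ± 0.27 (SE) on the log2 scale for Mrps26 and 0.56 ± 0.26 for Mrps9, with an adjusted p of 0.672 for each in edgeR's quasi-likelihood test. For the other 3 the second tMCAO library carried most of the difference. Mrpl33 was at 134.1 and 127.7 CPM in sham blood and 141.7 and 371.3 CPM after tMCAO (log2 fold change 0.97 ± 0.45, adjusted p = 0.672). Mrpl48 was at 35.1 and 40.1, then 41.4 and 94.9 CPM (0.86 ± 0.41, adjusted p = 0.675), and Mrpl41 at 55.9 and 53.9, then 59.0 and 139.9 CPM (0.86 ± 0.41, adjusted p = 0.678). The estimates below 0 were those of Mrpl3 (-0.14 ± 0.26), Mrpl4 (-0.09 ± 0.24) and Mrps2 (-0.02 ± 0.46), with adjusted p from 0.949 to 1.0. The libraries of both groups overlapped in all of these 3 genes.

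What set tMCAO blood apart was the distance between its own libraries. Library 2 was above library 1 for 71 of the 77 genes, by a median of 0.97 on the log2 scale or 1.96-fold. The libraries differed by over 2-fold for 38 genes, all higher in library 2 except Mrps2. Over all genes tested 44.3% were higher in library 2 and 13.3% by over 2-fold. In either direction, 4127 of 12424 genes differed by over 2-fold. In sham blood library 2 was above library 1 for 26 of the 77 genes (48.6% of all genes), with a median ratio of 0.959, and 0 genes were over 2-fold higher (8.11% of all genes). In brain it was above for 32 of the 77 genes (47.7% of all genes), with a median ratio of 0.954, and 1 gene, Mrpl44, was over 2-fold higher (9.51% of all genes). The SD of the log2 ratio of the libraries over the 77 genes was 0.154 (sham blood), 0.585 (tMCAO blood) and 0.274 (brain). Over all genes tested it was 0.819, 1.27 and 0.807, so in both the 77 genes and the whole table it was largest in tMCAO blood. The test shares 1 estimate of the spread among the groups.

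The ratio differed from gene to gene. Mrpl42, a large subunit protein without a bacterial counterpart, was at 104.6 CPM in tMCAO blood 1 and 386.2 CPM in tMCAO blood 2, 3.69-fold apart. Mrpl23, the counterpart of bacterial L23 at the exit of the tunnel for new chains, was at 57.0 and 197.1 CPM, 3.46-fold apart. Mrpl45, which in human binds the ribosome to the inner membrane, was at 37.7 and 123.5 CPM, 3.27-fold apart. These are the largest ratios of the 77, and each was over 3 times the level of the other library of its group. Lower in library 2 were 6 genes: Mrps2 (37.9 and 14.1 CPM), Mrps5 (20.9 and 11.6 CPM), Mrpl4 (121.7 and 103.7 CPM), Mrpl43 (64.4 and 59.3 CPM), Mrpl52 (25.8 and 24.8 CPM) and Mrpl9 (87.4 and 86.2 CPM). Of these, Mrps2 was 2.68-fold and Mrps5 1.8-fold lower, and the other 4 differed by 1.17-fold or less. Mrps2 and Mrps5 are the counterparts of bacterial S2 and S5 and were also among the 5 lowest genes by FPKM. On that scale Mrps2 was again lower in library 2 (18.9 and 6.56 FPKM), while Mrps5 was higher (16.7 and 21.1 FPKM). By class in the grouping made by hand, the median ratio was 1.84-fold for the 28 large subunit genes with a bacterial counterpart and 2.12-fold for the 20 without. It was 2.10-fold for the 17 small subunit genes with a counterpart and 1.84-fold for the 12 without.

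**Figure D2:**
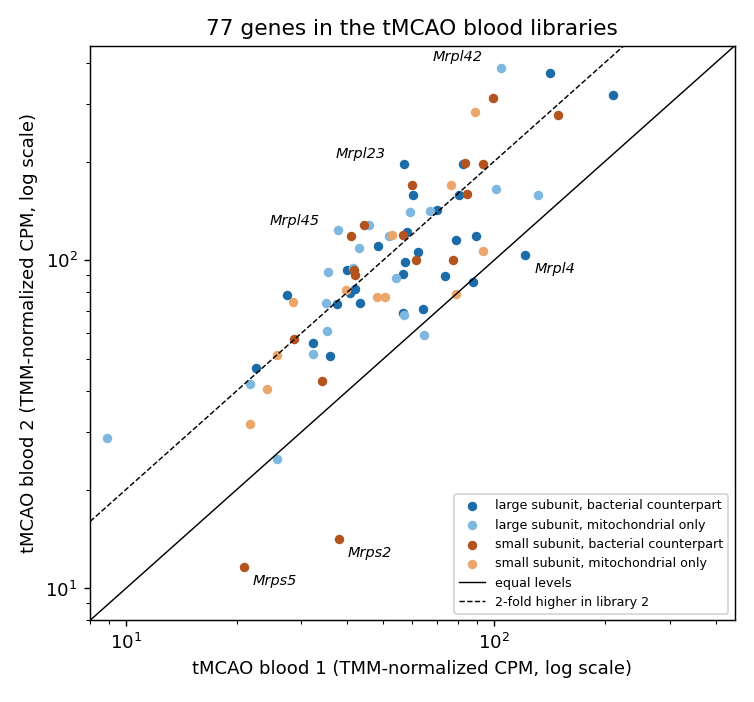
Each point is 1 of the 77 genes, with its TMM-normalized CPM in tMCAO blood 1 on the x axis and in tMCAO blood 2 on the y axis, both on log scales, and colors by class as in the plot of ratios by library. The solid line marks equal levels and the dashed line a 2-fold higher level in library 2. Above the solid line lie 71 genes, while Mrps2 and Mrps5 lie farthest below it. Of the 38 genes that differ by over 2-fold, all but Mrps2 lie above the dashed line.

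Other values moved with library 2 of tMCAO blood. The summed T cell markers were 10890 CPM in library 1 and 15520 CPM in library 2, although among them Cd3e was at 932.0 and 454.5 CPM and Il2rb, the gene of the sort marker CD122, at 679.7 and 159.6 CPM. Nuclear genes for oxidative phosphorylation subunits had a median log2 ratio of library 2 to library 1 of 0.81, with 69 of 79 higher in library 2. Cytosolic ribosomal protein genes had a median of 0.22, with 64 of 86 higher. Genes with short transcripts also tended to be higher in library 2: with all genes ordered by exon length and split into 4 equal classes, the median log2 ratio was 0.24 in the shortest class, up to 2645 bases, and 0.97 for the 43 members in that class. In the longer classes the members' medians were 0.79, 0.80 and 1.11, where the medians over all genes were -0.07, -0.19 and -0.19. The ratio also varied with level. With all genes split into 4 equal classes by level, classes 2, 3 and 4 (the highest) held 2, 40 and 35 members. The medians over all genes there were -0.24, -0.09 and 0.22, and those of the members 0.42, 0.95 and 1.07. Across the 77 genes the log2 ratio had a Pearson correlation of -0.05 with log2 exon length, a description over genes that share these 2 libraries. The part of T cell content, of transcript length and of level in the difference between the 2 libraries was not tested.

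Either library decided the comparison. Without tMCAO blood 1, 19 of the 77 genes were called higher and 0 lower, against 2.17% and 3.58% of all 13085 genes tested in that fit, and the median log2 fold change was 0.80 against -0.09 over all genes. The smallest adjusted p of edgeR's quasi-likelihood test was then that of Mrpl42 (log2 fold change 1.73, adjusted p = 0.0226), followed by Mrpl41 (1.35, adjusted p = 0.0297), Mrps12 (1.41, adjusted p = 0.0298) and Mrps33 (1.15, adjusted p = 0.0298). Without tMCAO blood 2, 0 were called, against 0.0918% of all genes higher and 0.963% lower, 27 of 77 estimates were above 0 and the median was -0.13. In both fits 1 library stands for tMCAO blood and is assumed to vary like the other groups. Scaling all 6 libraries by the mean log2 count of the T cell markers, brain included, gave a median of 0.15 against -0.22 over all genes. There 57 of 77 estimates were above 0 and 0 genes were called.

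The comparison of tMCAO brain with sham blood sets the libraries labelled as TRLs of the injured brain, whose T cell markers were low, against circulating TRLs without stroke. Of the 77 genes, Mrpl52 was higher in brain and Mrpl18, Mrpl9 and Mrps16 were lower, at an adjusted p under 0.05 and a fold over 2. Over all genes tested 18.7% were called higher and 11.8% lower, so the 1 higher and 3 lower genes are smaller shares of the 77 than of the whole table. The median log2 fold change was -0.07 over the 77 genes and 0.13 over all genes tested, and 36 of the 77 estimates were above 0. With library size scaling the median was -0.64 and with limma on FPKM -0.41.

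Mrpl18, the counterpart of bacterial L18 in the central protuberance, where the large subunit meets the small one, was at 212.4 and 195.6 CPM in sham blood and 90.2 and 81.6 CPM in brain. Both brain libraries lay below all 4 blood libraries, and the gene fell by 1.25 ± 0.29 (SE) on the log2 scale, 2.37-fold (adjusted p = 0.017). Mrps16, the counterpart of bacterial S16, whose loss in human impairs assembly of the small subunit, was at 93.0 and 85.85 CPM in sham blood and 34.65 and 33.2 CPM in brain. It fell by 1.40 ± 0.38 on the log2 scale, 2.64-fold (adjusted p = 0.03), and here too both brain libraries lay below all blood libraries. Mrpl9, the counterpart of bacterial L9, was at 78.8 and 77.3 CPM in sham blood and 43.0 and 34.7 CPM in brain. It fell by 1.01 ± 0.25 on the log2 scale, 2.01-fold (adjusted p = 0.0242), just past the fold minimum. Mrpl52, a large subunit protein without a bacterial counterpart, was at 27.02 and 23.21 CPM in sham blood and 63.1 and 53.7 CPM in brain. Its brain libraries lay above all blood libraries, and it rose by 1.22 ± 0.29 on the log2 scale, 2.33-fold (adjusted p = 0.0184).

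**Figure D3:**
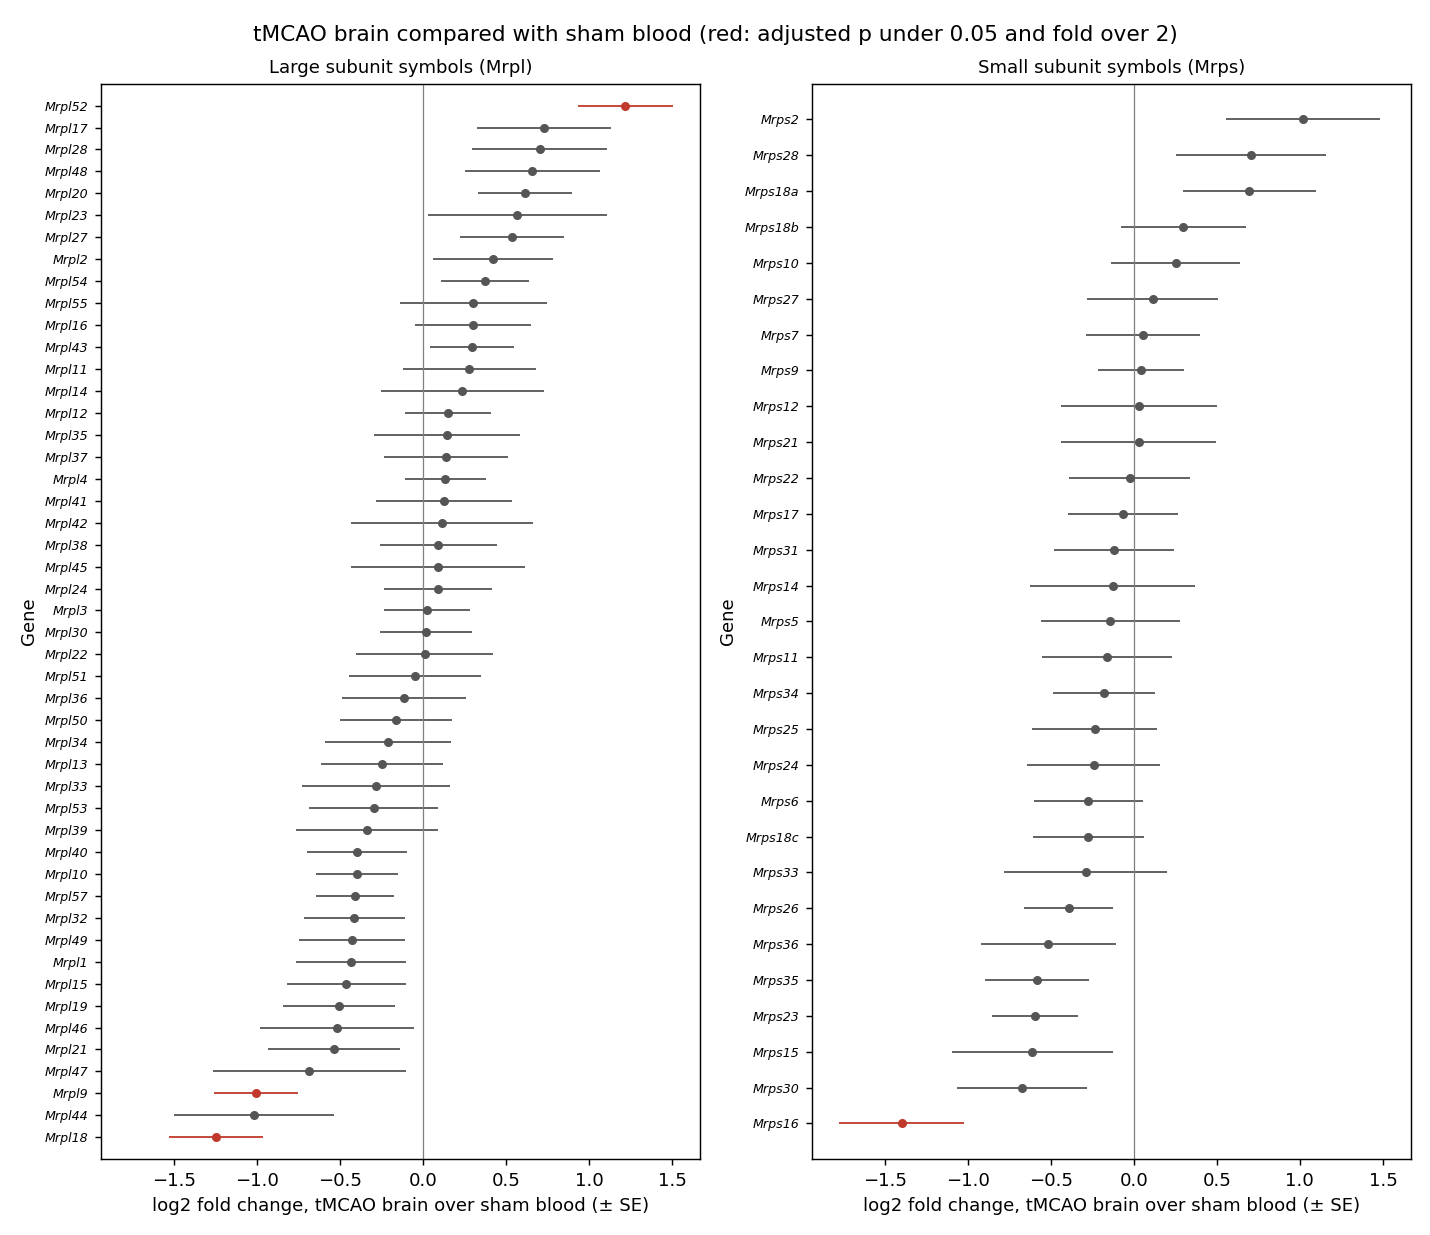
Log2 fold changes of tMCAO brain over sham blood with SE bars from the fit to all 6 libraries, for the 48 large subunit symbols on the left and the 29 small subunit symbols on the right, each sorted by its estimate. Red marks Mrpl52 on the higher side and Mrpl18, Mrps16 and Mrpl9 on the lower side, and the other genes are grey.

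All 4 calls were lost when either sham library or either brain library was left out. Each such fit leaves 1 library in a group, and in each the share of all genes called was lower too. The log2 fold changes then ran from -1.41 to -1.20 for Mrpl18, -1.52 to -1.35 for Mrps16, -1.26 to -0.98 for Mrpl9 and 1.00 to 1.32 for Mrpl52. Over all alternatives the adjusted p reached 0.125 for Mrpl18, 0.146 for Mrps16, 0.168 for Mrpl9 and 0.174 for Mrpl52. The fold of Mrpl9 fell under the minimum with a stricter filter on low counts, and Mrpl52 did not pass with library size scaling or in limma on FPKM. The SE of Mrps2, the counterpart of bacterial S2, was wider: it was at 25.4 and 27.4 CPM in sham blood and 55.8 and 51.2 CPM in brain, a log2 fold change of 1.02 ± 0.47 (adjusted p = 0.141), named here after its values were seen. Mrpl44, a protein with the fold of an RNase III and without a bacterial ribosomal counterpart, was at 44.2 and 38.7 CPM in sham blood and 13.6 and 27.4 CPM in brain (-1.02 ± 0.48, adjusted p = 0.152), also chosen after its values were seen. Neither passed, with folds as large as that of Mrpl9.

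Levels in brain and sham blood did not overlap for 19 genes higher and 33 genes lower in brain, where 43.1% of all genes were higher and 35.8% lower without overlap. Both brain libraries lay above all 4 blood libraries for Mrpl52 and Mrps2, 2.6% of the 77 against 33.6% of all genes. Both lay below all 4 blood libraries for 24 genes, 31.2% against 26.6% of all genes. Of these 24, 16 were Mrpl genes, among them Mrpl33, Mrpl46 and Mrpl57, and 8 were Mrps genes, among them Mrps11, Mrps26 and Mrps30. By class of symbol, 2 of the 12 Mrps genes without a bacterial counterpart had an estimate above 0, with a median of -0.26, and 0 of the 12 passed. These 12 include Mrps30 (-0.67), whose protein is in the large subunit, and Mrps36 (-0.51), whose protein is placed in another complex. The medians were 0.02 for the 28 Mrpl genes with a counterpart, 0.02 for the 20 without, and -0.07 for the 17 Mrps genes with a counterpart, Mrps18a among them.

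Promoters were searched for motifs of NRF1, GABPA and YY1, factors known to drive nuclear genes of mitochondria, and those of called genes are shown. RefSeq windows of 250 bases before to 50 bases after the most upstream start, on GRCm38.p6, were matched by symbol for 68 of the 77 genes and for 27025 genes in all. The NRF1 motif (GCGCA and GCGC with any 1 base between them, both strands) was in 13 of the 68 windows (19.1%) and in 4.82% of all. The ETS motif bound by GABPA (CCGGAAG, both strands) was in 23 (33.8%) against 9.14%, and the YY1 motif (AAGATGGCG, both strands) in 8 (11.8%) against 1.48%. At least 1 of these 3 was in 38 windows (55.9%) against 14.1%. The E-box (CACGTG) was in 5 (7.35%) against 7.24% and the CCAAT box in 27 (39.7%) against 38.0%, and median GC content was 58.2% against 52.7%. The 27025 genes were not limited to those expressed here, while all 77 members were, so these shares are not matched for expression. No motif overlap was removed, and a match is a description of letters. The upstream bases of 3 of the 4 genes called in both brain comparisons follow, 5′ to 3′ on the gene's strand and ending just before the first annotated start, with matches to the NRF1, ETS and YY1 motifs in capitals. Mrpl52 lies on the plus strand at chr14:54426659-54426908, Mrpl9 on the plus strand at chr3:94443086-94443317, and Mrps16 on the minus strand at chr14:20393635-20393884.
Mrpl52: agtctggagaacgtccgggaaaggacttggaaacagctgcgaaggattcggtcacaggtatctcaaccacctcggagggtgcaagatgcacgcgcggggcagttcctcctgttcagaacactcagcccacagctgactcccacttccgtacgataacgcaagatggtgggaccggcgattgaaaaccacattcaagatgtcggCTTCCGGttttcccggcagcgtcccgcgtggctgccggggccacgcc
Mrpl9: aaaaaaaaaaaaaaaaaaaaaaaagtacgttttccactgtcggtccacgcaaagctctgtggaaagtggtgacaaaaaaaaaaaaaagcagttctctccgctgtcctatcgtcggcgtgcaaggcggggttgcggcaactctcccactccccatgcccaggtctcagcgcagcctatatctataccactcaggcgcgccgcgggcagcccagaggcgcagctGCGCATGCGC
Mrps16: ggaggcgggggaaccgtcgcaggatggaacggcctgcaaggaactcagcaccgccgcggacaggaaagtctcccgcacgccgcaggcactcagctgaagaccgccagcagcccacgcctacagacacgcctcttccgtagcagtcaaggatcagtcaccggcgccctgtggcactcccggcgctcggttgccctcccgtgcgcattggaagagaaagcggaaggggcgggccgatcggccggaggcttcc
In Mrpl52 the capitals are the ETS motif on the opposite strand, 40 bases before the end. In Mrpl9 an NRF1 match forms the last bases, and Mrps16 had none of the 3 in these 250 bases. Mrpl18 is not printed because most of its window lies within an annotated transcript of the gene, and its window held 1 match to the ETS motif. The ETS motif was in the windows of Mrpl52, which rose, and of Mrpl18, which fell, and no relation of motif to direction was tested.

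Several members lie so close to a neighbour that reads cannot be assigned with certainty. In the GENCODE M21 annotation of GRCm38 the 77 genes are on 17 chromosomes, with 10 on chromosome 11 and 8 on chromosome 17, and 32 share exon bases with another gene, 23 of them with a gene of the count table. The library kit does not mark the strand, so a gene and its antisense partner cannot be told apart there. Mrpl18 (chromosome 17, 12911349 to 12916345) shares 141 bases with Tcp1 on the other strand, a chaperonin gene at 314 and 314 CPM in sham blood and 232 and 233 CPM in brain. Mrpl9 (chromosome 3, 94443318 to 94451130) shares 157 bases with Oaz3, which was at or under 0.0921 CPM in every library. Mrps16 (chromosome 14, 20389304 to 20393634) and Mrpl52 (chromosome 14, 54426909 to 54429756) share none. Mrpl46 and Mrps11, 1 gene of each subunit, share 173 bases of their exons in opposite directions. The annotation holds 5 pseudogenes named after members, 0 of which are in the count table, so reads from such copies may be among those of the parent genes or among the reads without a unique position.

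The comparison of tMCAO brain with tMCAO blood sets 2 tissues of stroke mice against each other, and it shares its brain libraries with the comparison above. Here Mrpl52 was higher and Mrpl18, Mrps16, Mrpl9 and Mrpl49 were lower in brain, against 20.4% of all genes called higher and 13.2% lower. Mrpl52 rose by 1.20 ± 0.29 on the log2 scale (2.31-fold, adjusted p = 0.0174). Mrps16 fell by 2.10 ± 0.38 (4.27-fold, adjusted p = 0.00651), with 93.1 and 196.9 CPM in tMCAO blood, and Mrpl18 fell by 1.63 ± 0.29 (3.09-fold, adjusted p = 0.00566), with 210.8 and 319.5 CPM in tMCAO blood. Mrpl9 fell by 1.16 ± 0.26 (2.23-fold, adjusted p = 0.0134), with 87.4 and 86.2 CPM in tMCAO blood. For these 4 genes no brain library overlapped a blood library.

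Mrpl49, a large subunit protein without a bacterial counterpart, was at 54.2 and 88.5 CPM in tMCAO blood and 32.2 and 37.1 CPM in brain and fell by 1.04 ± 0.32 on the log2 scale (2.06-fold, adjusted p = 0.0438). It shares 91 bases with Syvn1 on the other strand, which was at 14.7 and 6.66 CPM in tMCAO blood and 34.6 and 19.6 CPM in brain. With no fold minimum 2 more genes were lower, 1 higher and 6 lower in all, against 20.9% and 14.2% of all genes. Mrpl57, a large subunit protein without a bacterial counterpart, was at 131.7 and 158.4 CPM in tMCAO blood and 78.1 and 77.6 CPM in brain (-0.90 ± 0.24, adjusted p = 0.0262). On the FPKM scale the tMCAO blood libraries of Mrpl57 were at 213.1 and 62.5 FPKM, on both sides of the brain libraries (109.9 and 121.0 FPKM), and limma on log2(FPKM + 1) gave a log2 fold change of -0.003. Mrps26 was at 93.5 and 106.5 CPM in tMCAO blood and 43.7 and 58.1 CPM in brain (-0.97 ± 0.27, adjusted p = 0.0297). By CPM the libraries of the groups were apart in all 3 genes, and the sham libraries lay between them.

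**Figure D4:**
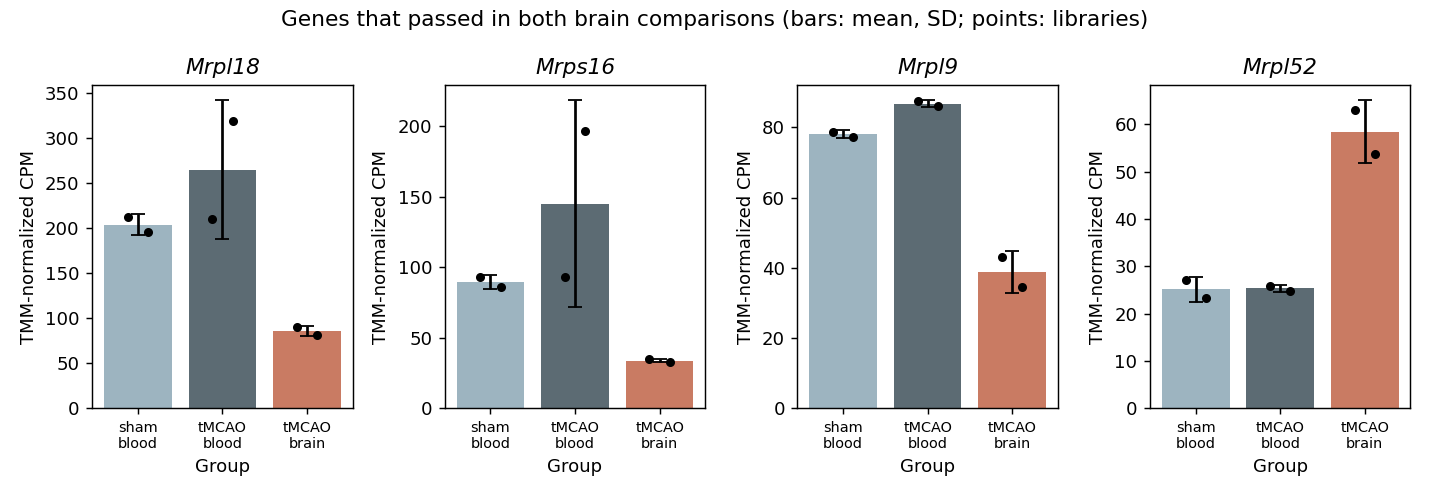
Bars are mean TMM-normalized CPM with SD (n = 2) and points are the libraries, for the 4 genes that passed in both brain comparisons. Brain is lowest for Mrpl18 (90.2 and 81.6 CPM), Mrps16 (34.65 and 33.2 CPM) and Mrpl9 (43.0 and 34.7 CPM) and highest for Mrpl52 (63.1 and 53.7 CPM).

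Over the 77 genes the median log2 fold change of brain over tMCAO blood was -0.56, against 0.05 over all genes, and 9 estimates were above 0. The libraries did not overlap for 3 genes higher and 28 lower in brain, where the shares over all genes were 37.6% and 30.9%. The second tMCAO blood library again decided these values. Without tMCAO blood 1, 36 genes were called lower and 2 higher, with a median of -0.95, against 16.4% and 24.4% of all genes. Without tMCAO blood 2, 3 were lower and 2 higher, against 1827 and 2265 of 13078 genes in all, with a median of 0.02 and 40 of 77 estimates above 0. Mrpl18 and Mrps16 kept their calls without either tMCAO blood library, as did Mrpl9 and Mrpl52, while Mrpl49 lost its call without tMCAO blood 2. The call of Mrpl18 was lost without brain 2 (log2 fold change -1.67), that of Mrps16 without either brain library (-2.21 and -2.18), and those of Mrpl9, Mrpl52, Mrpl49, Mrpl57 and Mrps26 without any one of the sham or brain libraries. Mrpl49, Mrpl57 and Mrps26 also did not pass in edgeR or DESeq2 on the 2 groups alone.

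Other genes of mitochondrial translation were read from lists chosen by role. Over all genes tested, 18.7% were called higher and 11.8% lower in brain against sham blood, and 20.4% and 13.2% in brain against tMCAO blood. Between tMCAO blood and sham blood these shares were 0.0% and 0.821%. Of all these lists, 0 genes were called between tMCAO blood and sham blood, with median log2 fold changes from 0.00 to 0.44. Among 7 genes listed as mitochondrial ribosome proteins under other symbols, 1 rose and 2 fell in brain against sham blood, with a median of -0.30. The 1 that rose, Oxa1l, does not itself encode a ribosomal protein. The estimates of Dap3, Chchd1, Aurkaip1, Ptcd3, Gadd45gip1 and Ict1 were all below 0. Ptcd3, a small subunit protein with pentatricopeptide repeats, was at 129.4 and 150.6 CPM in sham blood and 43.8 and 39.4 CPM in brain (-1.75 ± 0.26, adjusted p = 0.0032). Ict1, a large subunit protein that can release stalled chains, was at 97.02 and 82.61 CPM in sham blood and 38.3 and 33.7 CPM in brain (-1.32 ± 0.36, adjusted p = 0.0318). Oxa1l, which inserts new chains into the inner membrane, was at 23.4 and 24.2 CPM in sham blood and 51.6 and 59.5 CPM in brain (1.22 ± 0.34, adjusted p = 0.0323), and shares 232 bases with Slc7a7, at 153.6 and 152.5 CPM in brain. Ptcd3 and Ict1 also fell against tMCAO blood, by 1.30 ± 0.26 (adjusted p = 0.00852) and 2.13 ± 0.37 (adjusted p = 0.00532).

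Among 14 translation factors, 1 fell in brain against sham blood (11.8% of all genes) and 2 fell against tMCAO blood (13.2% of all genes). Mtif2, the initiation factor that places the first tRNA, was at 59.2 and 79.5 CPM in sham blood and 32.2 and 27.2 CPM in brain (-1.22 ± 0.29, adjusted p = 0.0194). Mtfmt, which adds the formyl group to the first tRNA, was lower in brain than in tMCAO blood (-1.24 ± 0.36, adjusted p = 0.0363). Of 27 assembly and rRNA modification genes, 0 rose and 2 fell against sham blood, where 18.7% of all genes rose and 11.8% fell. The 2 were Ngrn, at 44.2 and 41.6 CPM in sham blood and 14.01 and 14.18 CPM in brain (-1.60 ± 0.28, adjusted p = 0.00636), and Tfb1m, a methyltransferase of the small rRNA (-1.79 ± 0.43, adjusted p = 0.0209). Ngrn was also the 1 gene of this list to fall against tMCAO blood.

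Of 11 genes of mitochondrial DNA maintenance and transcription, 0 rose and 3 fell against sham blood, with a median of -0.59, and 4 fell against tMCAO blood. Over all genes 18.7% rose and 11.8% fell against sham blood, and 13.2% fell against tMCAO blood. Tfam, which packages mitochondrial DNA and starts its transcription, was at 84.2 and 111.8 CPM in sham blood and 21.6 and 32.8 CPM in brain (-1.85 ± 0.38, adjusted p = 0.0118). Mterf1a was at 9.07 and 10.7 CPM in sham blood and 2.58 and 2.84 CPM in brain (-1.86 ± 0.50, adjusted p = 0.0286), and Mterf2 at 19.3 and 15.8 CPM in sham blood and 0.0 and 1.19 CPM in brain (adjusted p = 0.0126), with 398 exon bases shared with Tmem263. Of 17 mitochondrial aminoacyl-tRNA synthetases, 0 were called against sham blood, while against tMCAO blood Lars2 was higher (1.84 ± 0.48, adjusted p = 0.024) and Mars2 lower (-1.80 ± 0.41, adjusted p = 0.0159). Of 8 regulators of nuclear mitochondrial genes, such as Gabpa and Gabpb1, 0 were called in any comparison. No gene encoded in mitochondrial DNA has a row among those used here, so the products of mitochondrial translation were not analysed here.

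The cytosolic ribosome and the respiratory chain differed from the 77 genes in their medians. The 86 cytosolic ribosomal protein genes had a median log2 fold change of -0.45 in brain against sham blood. Of these, 0 were higher and 5 lower, among them Rpl13a, Rpl22l1 and Rps7, where 18.7% of all genes were higher and 11.8% lower. Against tMCAO blood the median was -0.45, with 2 higher and 5 lower, where 20.4% of all genes were higher and 13.2% lower. The 79 nuclear genes of oxidative phosphorylation had medians of 0.12 and -0.25 in these comparisons, with 1 higher and 0 lower against sham blood and 2 higher and 2 lower against tMCAO blood. Sdhc, a subunit of complex II, was at 115.0 and 117.0 CPM in sham blood and 214.4 and 212.7 CPM in brain (0.88 ± 0.23, adjusted p = 0.0275, under the fold minimum). Medians of the lists share the same libraries, and no test of their difference was run.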

How the data were processed

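RNA from sorted cells was sequenced as paired 75-base reads after SMART-Seq amplification and Nextera XT library preparation. Per the labels and methods, the authors checked reads with FastQC, mapped them to GRCm38 with TopHat and estimated abundance with Cufflinks; which annotation release they used is not given in the sources used here. Raw counts per gene symbol and FPKM values are what the authors deposited. Of the count table, 5 lines that name no gene (reads outside features 43.0% to 45.6%, reads without a unique position 14.0% to 22.0%, ambiguous reads 0.487% to 0.720% of reads) and 27 lines with dates for symbols were left out. Counts were tested with edgeR 4.0.16 in R 4.3.3 (filterByExpr with minimum counts of 10 and 15 in total, TMM scaling, glmQLFit and glmQLFTest, 6 libraries in 1 fit with 3 residual degrees of freedom, Benjamini-Hochberg adjustment over 12424 genes). Each SE was derived from the F statistic of its gene.

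Alternatives used DESeq2 1.42.0, limma 3.58.1 (voom, or log2(FPKM + 1) and log2(FPKM + 0.1) with a minimum of 1 FPKM or none), other scalings and filters, a fit on 2 groups, and leaving out each library. The fit was tested on simulated data. Tables were made with Python 3.11.15 and pandas 2.3.3, plots with matplotlib 3.10.9. Genes named are, per comparison, those called, or else the 5 higher and 5 lower with the smallest p; the 5 highest and lowest by FPKM; the S18 paralogs and Mrps36; and up to 3 genes per other list by smallest p. The 77 genes and the lists were chosen with earlier results of these data known. A result on higher levels in the list of translation factors is not reported here. The FPKM table joins the symbols or lacks a value for 6 of the 77 genes.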

Additional observations from a re-analysis of the deposited data

How the results depend on the processing

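With 2 libraries per group, 3 residual degrees of freedom and unequal spread among groups, no count of calls is firm, and brain and blood libraries differ in cell content. Leaving out 1 library at a time moved the calls from 0 to 19 higher and 0 lower for tMCAO blood with sham blood (median log2 fold change -0.13 to 0.80), 0 to 2 higher and 0 to 4 lower for brain with sham blood (-0.198 to -0.052), and 0 to 2 higher and 0 to 36 lower for brain with tMCAO blood (-0.946 to 0.019). For brain with sham blood, 0 were higher and 10 lower with library size scaling (12.9% and 21.8% of all genes), 0 higher and 9, 9 and 7 lower in limma on FPKM (pseudocount 1, 0.1, and 1 with no filter; 19.6%, 19.8% and 10.3% of all genes lower), and 0 and 0 at an adjusted p under 0.01. The median of the 77 genes was -0.64 with library size scaling, -0.25 with upper-quartile scaling, -0.17 in DESeq2 and -0.19 in edgeR on the 2 groups alone, and -0.41, -0.42 and -0.41 in limma on FPKM. Library size and upper-quartile scaling kept it 0.20 below the median of all genes, which they moved to -0.44 and -0.05, by construction of the scaling. For brain with tMCAO blood, 0 were higher and 28 lower with library size scaling (median -0.998; 1938 and 2863 of all 12424 genes), 10 lower with upper-quartile scaling (15.6% of all genes), 8 in DESeq2 on all samples (14.3%), 0 higher and 18, 18 and 13 lower in limma on FPKM (21.3%, 21.7% and 11.3%), and 0 higher and 2 lower at an adjusted p under 0.01. The cause of the differences between tools was not tested. In tMCAO blood with sham blood, leaving out 1 library gave -0.214 to 0.019 for Mrpl4, above 0 without sham blood 1, and -0.903 to 0.49 for Mrps2, above 0 without sham blood 2 (0.04) or tMCAO blood 2. Same-numbered libraries of different groups have no stated link and their deviations correlated at -0.02, -0.03 and 0.03. With the replicate block, the calls were 0, 1 higher and 3 lower, and 1 higher and 3 lower in the 3 comparisons, with medians of 0.41, -0.07 and -0.51. The shares of all genes called higher and lower were then 0.0% and 0.58%, 15.7% and 10.5%, and 17.5% and 11.1%. The other alternatives kept the counts within 1.5 times and the medians in direction.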
